A study of Rattus norvegicus with 6 samples.

Results

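The miRNAs described here mark the cells of blood vessels and of blood. The list held 8 mature miRNAs chosen by name. rno-miR-126a-3p and rno-miR-126a-5p stand for endothelial cells, rno-miR-143-3p, rno-miR-145-5p, and rno-miR-145-3p for smooth muscle cells and pericytes, and rno-miR-144-3p, rno-miR-451-5p, and rno-miR-486 for red blood cells. The prefix for rat is left out from here on. Of these 8, 7 had a row among the 493 mature miRNAs of the count table, and all 7 passed the filter on low counts that left 452 miRNAs for testing. miR-144-3p had no row and is not analysed here.

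Small RNA was sequenced from the peri-infarct cortex, the tissue beside the infarct, of male Sprague-Dawley rats of 250 to 270 g, with 3 libraries in each group. In the MCAO group, blood flow through the right middle cerebral artery was blocked for 90 min and then restored, and the labels place tissue collection at day 7. The MCAO + rTMS group had the same occlusion of 90 min and then 10 Hz repetitive transcranial magnetic stimulation for 10 min a day on 7 consecutive days, a treatment that applies magnetic pulses through the skull. These 2 groups are also called unstimulated and stimulated here, and values of replicates are given in the order 1, 2, and 3. Labels of the MCAO + rTMS rats give no day of collection, the labels give no age, and sham-operated rats were not analysed here. All 6 libraries come from occluded brains, so the comparison addresses the stimulation after stroke and not the stroke itself.

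Library totals lay between 10492610 and 15411620 counts. They were scaled by TMM factors of 1.16 to 1.39 for the unstimulated and 0.70 to 0.86 for the stimulated libraries. Levels are given as CPM, that is counts relative to the scaled total. A mature miRNA yields 1 read of its own length, so no scaling by length was applied. Log2 fold changes are for MCAO + rTMS over MCAO. They and the adjusted p-values come from the quasi-likelihood test of edgeR, adjusted by Benjamini-Hochberg over the 452 tested miRNAs. Over all 452 the median log2 fold change was -0.21 after TMM scaling, -0.50 with upper-quartile factors, and -0.80 with library totals only, so changes are also given relative to that median.

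miRNAs are short RNAs that guide Argonaute proteins to messenger RNAs, mostly through pairing of the seed, bases 2 to 8 counted from the 5′ end. miR-126 is made from an intron of Egfl7, a gene of endothelial cells, and is known for its part in vessel integrity and in signalling downstream of vascular growth factors. miR-143 and miR-145 are made from neighbouring hairpins and are known for holding smooth muscle cells in the contractile state. miR-144 and miR-451 also come from neighbouring hairpins and accumulate as red blood cells mature, and miR-486, hosted by the ankyrin gene Ank1, is abundant in red blood cells and in muscle. In brain tissue these miRNAs are therefore read as markers of the vessel wall and of blood.

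The sequences of the endothelial pair and of the red cell miRNA miR-451-5p are printed here. The results compare the arms of 1 hairpin and set a Dicer-independent miRNA beside the others. The printed sequences are the RefSeq mature sequences on the GRCr8 build, with the seed in capitals. For miR-486, the other red cell miRNA that changed, no RefSeq sequence was available. The deposited counts are assigned by miRNA name, and rn6 is the build in the submitters' processing notes, so these positions locate the sequences and not the reads.
miR-126a-3p: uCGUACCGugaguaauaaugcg
miR-126a-5p: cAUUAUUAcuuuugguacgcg
miR-126b: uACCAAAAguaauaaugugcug
miR-451-5p: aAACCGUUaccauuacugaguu

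miR-126a-3p lies at chr3:29813219-29813240 and miR-126a-5p at chr3:29813182-29813202, both on the plus strand and inside the span of Egfl7. miR-126b lies at chr3:29813177-29813198 on the minus strand and overlaps miR-126a-5p by 17 bases. It had no row in the count table, and it is shown because it comes from the opposite strand of the same place. miR-451-5p lies at chr10:63459585-63459606 on the plus strand, and its hairpin starts 89 bases after the miR-144 hairpin ends. The hairpins of miR-143 and miR-145 are separated by 1278 bases. The seeds of the 6 members that had both a row and a RefSeq sequence were each shared with no other mature miRNA of the RefSeq table. The GC content of miR-126a-5p was 38.1% and that of miR-451-5p 36.4%, below the median of 47.8% over the 414 tested miRNAs with a sequence, while miR-145-5p had 52.2%.

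Of the 7 members, 4 passed the edgeR test at an adjusted p of 0.05, as 55.3% of all tested miRNAs did. miR-486 and miR-143-3p were higher in the MCAO + rTMS group, and miR-126a-5p and miR-451-5p were lower. The background for 1 direction was 27.2% of tested miRNAs called higher and 28.1% called lower, so the number of members called was close to the share among all miRNAs. These counts shift with single libraries: 1 member was called higher without MCAO replicate 2 or without MCAO + rTMS replicate 1, 3 were called lower without MCAO replicate 3, and 1 was called lower when any other library was left out. With 1 library left out, 18.8% to 26.1% of all tested miRNAs were called higher and 18% to 28% lower. The members did not move in 1 direction, since each of the red cell and the smooth muscle sets held miRNAs with different changes. Their median log2 fold change was -0.08, against -0.21 over all tested miRNAs. In the same 4 members the libraries of the groups did not overlap, against 66.8% of all tested miRNAs. These were 2 members with all stimulated libraries higher and 2 with all lower, where the shares of all tested miRNAs were 30.8% and 36.1%. As these are bulk tissue libraries, a change in the number of cells of a type and a change in the RNA of each cell cannot be told apart.

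Over all 6 libraries the mean level fell in the order miR-143-3p, miR-126a-3p, miR-486, miR-145-5p, miR-126a-5p, miR-145-3p, and miR-451-5p, at ranks 32, 33, 102, 111, 204, 223, and 262 of the 452 tested miRNAs. Neighbours in this order stood differently in the groups. miR-126a-3p was above miR-143-3p, miR-145-5p above miR-486, and miR-126a-5p above miR-145-3p in all 3 MCAO libraries, and each of these pairs had the opposite order in all 3 stimulated libraries. These pairs were singled out after their values were seen, and no test of the order was made.

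**Figure D1:**
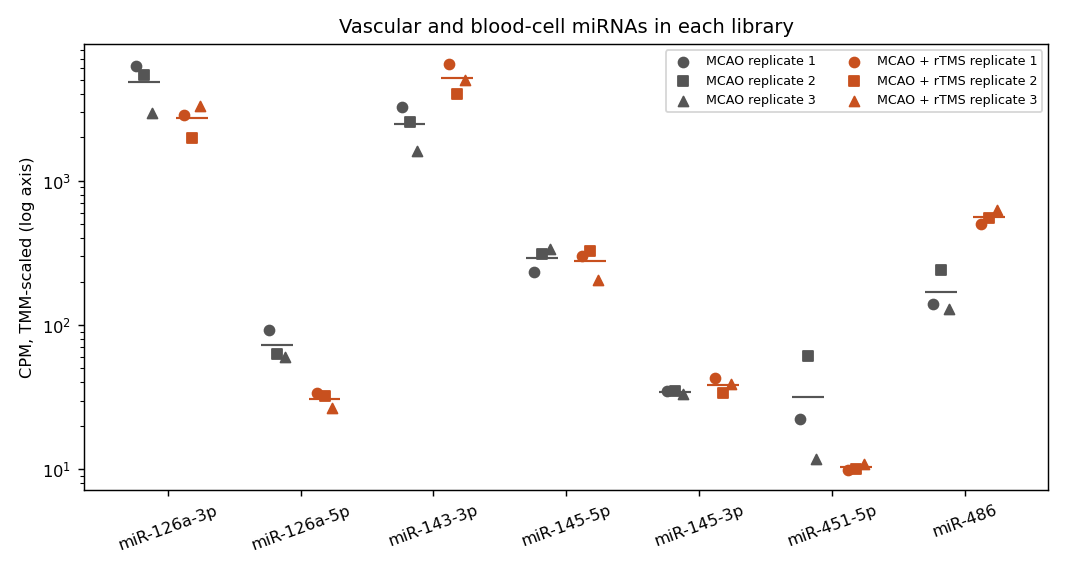
Level of each of the 7 miRNAs in each library, in CPM of the TMM-scaled totals on a log axis, with grey symbols for MCAO, orange symbols for MCAO + rTMS, 1 symbol shape for each replicate number, and a line at each group mean. The groups are apart for miR-126a-5p, miR-143-3p, miR-451-5p, and miR-486, and MCAO replicate 2 stands above the other libraries for miR-451-5p.

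miR-126a-3p, the abundant arm of the endothelial hairpin, was at 6205, 5389, and 2933 CPM in the MCAO replicates. The stimulated replicates were at 2845, 1984, and 3267 CPM. MCAO replicate 3 was low and lay inside the range of the MCAO + rTMS group, so the groups overlapped. The group means were 4842 ± 1703 CPM and 2699 ± 654 CPM (SD, n = 3 each). Its log2 fold change of -0.84 had a standard error of 0.32 and an adjusted p of 0.054 in the edgeR test, which did not pass the threshold. Without MCAO replicate 3 the log2 fold change was -1.08 and the adjusted p 0.019 in the same edgeR test. With library totals only the groups no longer overlapped, giving -1.46 on the log2 scale with an adjusted p of 0.0029 in the edgeR test. Relative to the median of all tested miRNAs, however, its change was -0.64 after TMM scaling and -0.66 on library totals alone. Over the 16 alternative fits the adjusted p ran from 0.0029 to 0.19.

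Its partner arm miR-126a-5p was much less abundant. It was at 93.0, 63.4, and 60.0 CPM in the MCAO replicates and at 33.9, 32.3, and 26.6 CPM in the stimulated ones. Every MCAO + rTMS library lay below every MCAO library. It fell by 1.22 on the log2 scale, with a standard error of 0.23 and an adjusted p of 0.0041 in the edgeR test. This is a fold of 0.429. It was called lower in all 16 alternative fits. Relative to the median of all tested miRNAs its change was -1.01 after TMM scaling and -1.02 on library totals alone.

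The arms were then set against each other within each library, which removes any scaling of library totals. There were 66.8, 84.9, and 48.9 reads of miR-126a-3p for each read of miR-126a-5p in the MCAO replicates. Stimulated replicates had 83.9, 61.5, and 123. The ranges overlapped, and the mean log2 ratio differed by 0.40 between the groups (exact permutation test, two-sided, p = 0.5). A test of 3 libraries against 3 cannot give a p below 0.1, so this test cannot pass a threshold of 0.05. Only the 5p arm passed the edgeR test, but no difference between the arms in their change was detectable beyond the spread of these libraries.

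miR-143-3p, the abundant arm of its hairpin, was at 3228, 2525, and 1603 CPM in the MCAO replicates. After stimulation it was at 6387, 4003, and 5003 CPM. All 3 stimulated libraries were above the unstimulated ones on this scale. miR-143-3p rose by 1.07 on the log2 scale, with a standard error of 0.30 and an adjusted p of 0.020 in the edgeR test. This is a fold of 2.09. The size of this change depended on the scaling: with library totals only the groups overlapped, and the log2 fold change was 0.47 with an adjusted p of 0.18 in the edgeR test. Relative to the median of all tested miRNAs, it was 1.27 under both scalings. The call was also lost without MCAO replicate 2, with an adjusted p of 0.069, and without MCAO + rTMS replicate 1, with an adjusted p of 0.063.

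The other strand of that hairpin, miR-143-5p, which was not on the list, went the other way. It fell from 7.80 ± 0.317 CPM to 4.67 ± 0.450 CPM (SD, n = 3 each). The edgeR test gave a log2 fold change of -0.74, a standard error of 0.22, and an adjusted p of 0.023. Its call held in 10 of the 15 alternative fits that tested it. The MCAO replicates had 430, 326, and 197 reads of miR-143-3p for each read of miR-143-5p. The stimulated replicates had 1249, 950, and 1072. The groups were apart, and the ratio was 3.59 times higher in the MCAO + rTMS group (exact permutation test, two-sided, p = 0.1, the smallest that 3 against 3 allows). This ratio was added after the counts had been seen.

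miR-145-5p, the arm known to act on the pluripotency and dedifferentiation factor Klf4, was at 232, 311, and 335 CPM in the MCAO replicates. With rTMS it was at 302, 325, and 204 CPM. The groups overlapped, and the edgeR test gave a log2 fold change of -0.08, a standard error of 0.24, and an adjusted p of 0.81. Its rarer partner miR-145-3p was at 34.9, 34.7, and 33.4 CPM in the MCAO replicates and at 43.0, 33.8, and 39.2 CPM in the stimulated ones. For miR-145-3p the edgeR test gave a log2 fold change of 0.17, a standard error of 0.17, and an adjusted p of 0.42. Direction held for neither arm, since miR-145-5p turned to 0.0062 when TMM factors were found without the 10 most abundant miRNAs, and miR-145-3p turned to -0.12 with upper-quartile factors and to -0.46 with library totals only. The ratio of the 5p to the 3p arm was 6.64, 8.95, and 10.0 in the MCAO replicates and 7.02, 9.61, and 5.21 in the stimulated ones, and the ranges overlapped (exact permutation p = 0.6).

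miR-143 and miR-145 are known to be transcribed together, so their balance was compared directly. There were 13.9, 8.12, and 4.78 reads of miR-143-3p for each read of miR-145-5p in the MCAO replicates. With stimulation there were 21.1, 12.3, and 24.5. The mean was 2.28 times higher in the MCAO + rTMS group, but MCAO replicate 1 lay above MCAO + rTMS replicate 2 (exact permutation test, two-sided, p = 0.2). Against miR-145-3p the ranges did not overlap, at 48.0 to 92.5 reads without and 118 to 148 with stimulation (exact permutation p = 0.1, for a ratio chosen after the counts had been seen). The rise of miR-143-3p was thus apart from the spread against 1 arm of miR-145 and not against the other.

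The smooth muscle miRNA and the endothelial miRNA changed places as the one with more reads. There were 0.520, 0.469, and 0.547 reads of miR-143-3p for each read of miR-126a-3p in the MCAO replicates. Stimulated replicates had 2.25, 2.02, and 1.53. All MCAO libraries were below 1 and all MCAO + rTMS libraries above it. The ratio was 3.73 times higher in the MCAO + rTMS group, and the difference of 1.90 on the log2 scale was 8.77 times the pooled SD of the libraries (exact permutation test, two-sided, p = 0.1). Within the MCAO group this ratio varied less than either miRNA did, with an SD of 0.11 on the log2 scale, since both miRNAs were highest in replicate 1 and lowest in replicate 3. With each library left out in turn the log2 difference stayed between 1.78 and 2.06.

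**Figure D2:**
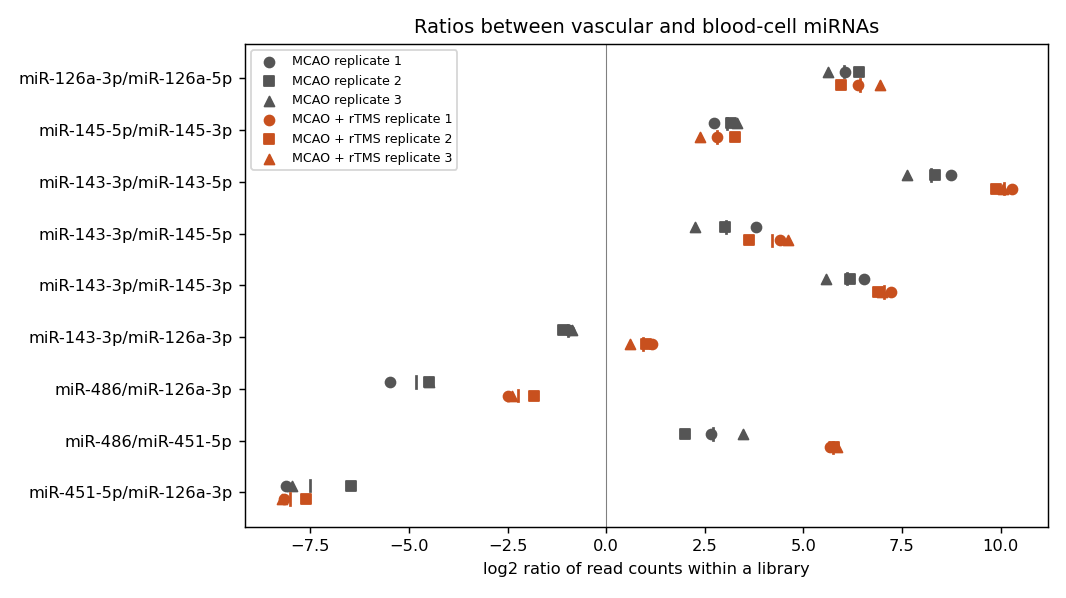
Log2 ratio of the read counts of pairs of miRNAs within each library, with grey symbols for MCAO, orange for MCAO + rTMS, 1 symbol shape for each replicate number, and a vertical tick at each group mean. For miR-143-3p over miR-126a-3p the MCAO libraries lie left of 0 and the MCAO + rTMS libraries right of it, and for miR-486 over miR-451-5p the group means are 3.06 apart.

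miR-451-5p is cut by Argonaute 2 instead of Dicer and is the miRNA most typical of red blood cells. It was at 22.2, 60.6, and 11.8 CPM in the MCAO replicates. The stimulated replicates were at 9.93, 10.1, and 10.9 CPM. MCAO replicate 2 stood far above the rest, while MCAO replicate 3 was only just above the MCAO + rTMS group. miR-451-5p fell by 1.61 on the log2 scale, with a standard error of 0.55 and an adjusted p of 0.038 in the edgeR test. This is a fold of 0.328. Without MCAO replicate 2 it was -0.72, with an adjusted p of 0.12 in the same edgeR test. The call was lost in 8 of the 16 alternative fits, including each one that left out a library other than MCAO replicate 3. Over the 16 fits the adjusted p ran from 0.0088 with library totals only to 0.20 in the equal-variance two-sample test.

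These values rest on few reads. miR-451-5p had 188 counts in MCAO replicate 3, for which the 95% Poisson interval is 162 to 217. It had 132, 120, and 112 counts in the MCAO + rTMS libraries, and the widest of their intervals, that of MCAO + rTMS replicate 1, was 110 to 157. Such intervals cover counting error only, since reads without molecular identifiers are not independent molecules.

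miR-486, whose row names no arm, was at 140, 241, and 129 CPM in the MCAO replicates. After rTMS it was at 503, 555, and 626 CPM. The stimulated libraries were all above the unstimulated ones by a wide margin. miR-486 rose by 1.72 on the log2 scale, with a standard error of 0.28 and an adjusted p of 0.0022 in the edgeR test. This is a fold of 3.30. It was called higher in all 16 alternative fits, and library totals only gave 1.11 on the log2 scale. Relative to the median of all tested miRNAs its change was 1.93 after TMM scaling and 1.91 on library totals alone.

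The 2 red cell miRNAs thus passed the test in opposite directions. The MCAO replicates had 6.28, 3.98, and 11.0 reads of miR-486 for each read of miR-451-5p. The stimulated replicates had 50.6, 54.8, and 57.5. The ratio was 8.35 times higher in the MCAO + rTMS group and varied little within it (exact permutation test, two-sided, p = 0.1). Without MCAO replicate 2 the difference on the log2 scale was 2.71, against 3.06 with all libraries. In the MCAO group both miRNAs were highest in replicate 2 and lowest in replicate 3 after TMM scaling. With library totals only both were still highest in replicate 2, but miR-486 was lowest in replicate 1.

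Against the endothelial miR-126a-3p, the red cell miRNAs differed from each other. miR-451-5p relative to miR-126a-3p overlapped between the groups, with a log2 difference of -0.48 (exact permutation p = 0.5) that became 0.04 without MCAO replicate 2. miR-486 relative to miR-126a-3p was 5.97 times higher in the MCAO + rTMS group, with no overlap (exact permutation p = 0.1, for a ratio chosen after the counts had been seen). In all, 9 ratios were compared, and after Benjamini-Hochberg adjustment the exact permutation p of those without overlap was 0.18.

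**Figure D3:**
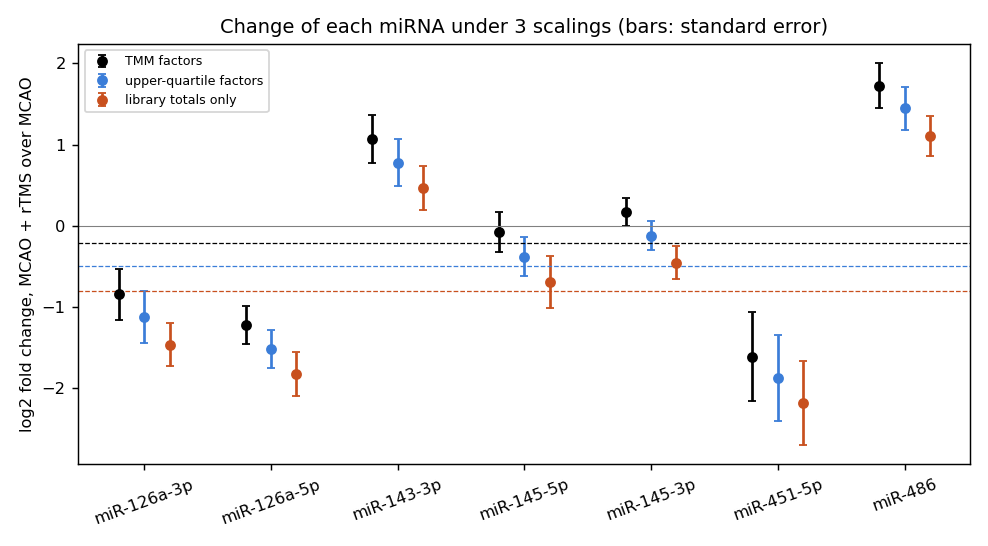
Log2 fold change of each miRNA between MCAO + rTMS and MCAO with TMM factors (black), upper-quartile factors (blue), and library totals only (orange), with bars for the standard error and dashed lines at the median of all tested miRNAs under the same scaling. The scalings shift all miRNAs together, so that miR-145-3p changes sign while miR-486 stays above 1 under all 3.

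Taken as classes, miR-126a held 0.600% ± 0.171 of all counts without and 0.217% ± 0.0384 with stimulation (SD, n = 3 each). The 3 miRNAs of miR-143 and miR-145 held 0.342% ± 0.0725 and 0.441% ± 0.121, and miR-451-5p with miR-486 held 0.0246% ± 0.00885 and 0.0458% ± 0.00263. These shares of the unscaled totals follow the most abundant miRNA of each class. The 7 members together held 0.967% ± 0.242 and 0.704% ± 0.148.

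The miRNAs also differed in their spread within the groups. In the MCAO group the SD of log2(CPM + 1) over the 3 libraries was 1.15 for miR-451-5p, 0.57 for miR-126a-3p, 0.51 for miR-143-3p, and 0.49 for miR-486, against a median of 0.20 over all tested miRNAs. These SDs lay at the percentiles 98.9, 94.2, 92.3, and 90.9 of all tested miRNAs. miR-145-3p was among the steadiest, with an SD of 0.03 at percentile 1.77, but with library totals only its SD was 0.11 at percentile 16.4. On that scaling the SDs of miR-451-5p, miR-126a-3p, miR-143-3p, and miR-486 lay at the percentiles 98.7, 85.2, 82.3, and 82.1. In the MCAO + rTMS group the SDs were 0.06 for miR-451-5p, 0.16 for miR-486, 0.37 for miR-126a-3p, and 0.34 for miR-143-3p, against a median of 0.31.

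The SD was larger in the MCAO group for 5 of the 7 members, all but both arms of miR-145, whereas it was larger in that group for 34.7% of all tested miRNAs. With library totals only it was larger for 4 of the 7 members and for 38.7% of all tested miRNAs. Among the MCAO libraries, replicate 3 was the lowest for 6 of the 7 members, all but miR-145-5p, where 46.0% of all tested miRNAs were lowest in that library. That library also had the largest TMM factor, and with library totals only it was the lowest for 23.7% of all tested miRNAs and for 3 of the 7 members, namely miR-126a-3p, miR-143-3p, and miR-451-5p. The highest value was in MCAO replicate 1 for both arms of miR-126a, miR-143-3p, and miR-145-3p, in MCAO replicate 3 for miR-145-5p, and in MCAO replicate 2 for both red cell miRNAs. For miR-145-3p the values of MCAO replicates 1 and 2 were close, and with library totals only its highest value was in MCAO replicate 3.

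**Figure D4:**
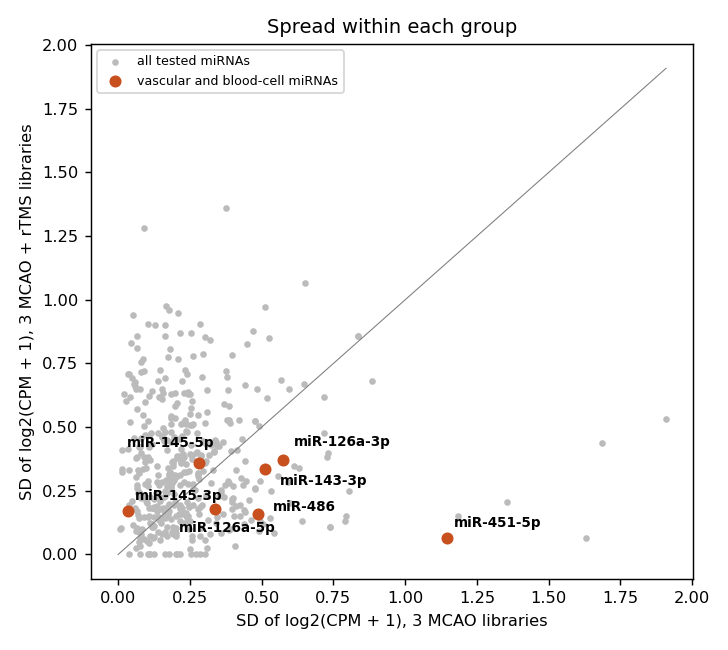
SD of log2(CPM + 1) over the 3 MCAO libraries (horizontal) and the 3 MCAO + rTMS libraries (vertical) for all tested miRNAs (grey) and the 7 vascular and blood-cell miRNAs (orange), with a line where both are equal. miR-451-5p lies far to the right, at 1.15 and 0.06, and 5 of the 7 lie below the line.

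The profiles of the members over the 6 libraries were compared by the root mean square difference of centred log2(CPM + 1), among the 286 miRNAs with a mean count above 200. The closest profiles were those of miR-22-5p (0.16) for miR-126a-3p, miR-674-5p (0.14) for miR-126a-5p, miR-873-5p (0.15) for miR-143-3p, miR-181b-5p (0.10) for miR-145-5p, miR-127-5p (0.11) for miR-145-3p, and miR-184 (0.23) for miR-486. The runners-up, in the same order, were miR-376b-5p, miR-380-3p, miR-379-5p, miR-7a-2-3p, miR-337-5p, and miR-128-2-5p. miR-451-5p had no close match, and its nearest were miR-126a-3p (0.58) and miR-29c-5p (0.60). Among the members themselves the most alike were the arms of miR-145 (0.33) and the arms of miR-126a (0.41), and the least alike were miR-451-5p and miR-486 (1.55).

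A wider list of 35 vascular and blood-cell miRNAs outside the members was read beside them, of which 33 were tested. Of these 33, 7 were higher and 17 lower in the edgeR test at an adjusted p of 0.05, beside 27.2% and 28.1% of all tested miRNAs. Their median change on the log2 scale was -0.74. With library totals only, 2 were called higher and 22 lower, beside 12.2% and 46.0% of all tested miRNAs. The same shares are the background for the smaller counts by class and by cell marker below. Without MCAO replicate 2, 4 were called higher and 11 lower, beside 18.8% and 19.5% of all tested miRNAs in that fit. Without MCAO replicate 1 and without MCAO + rTMS replicate 2, 4 were also called higher, beside 20.7% and 21.2% of all tested miRNAs.

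Among 11 endothelial or hypoxia-linked miRNAs, 3 rose and 4 fell. miR-10b-5p rose with a log2 fold change of 3.16 from a low level, miR-92a-3p rose by 1.17, and miR-222-3p by 0.82, while its cluster partner miR-221-3p fell by 0.82. miR-130a-3p (-1.31), miR-322-5p (-1.68), and miR-296-5p (-1.48) fell too. Other arms of the miRNAs that fell were not on the list. Of these, miR-322-3p (0.99) and miR-296-3p (1.14) were called higher, and miR-221-5p (0.20) was not called. miR-210-3p, the miRNA most typical of hypoxia, had a log2 fold change of -0.35 and did not pass the edgeR test (adjusted p = 0.18). In the same edgeR test it was called lower at -0.64 with upper-quartile factors (adjusted p = 0.022). With library totals only it was called lower at -0.96 (adjusted p = 0.011). The medians of all tested miRNAs under these 2 scalings were -0.50 and -0.80. After TMM scaling the change of miR-210-3p relative to the median was -0.14. The calls of miR-222-3p and miR-221-3p were kept in 10 and 7 of 16 alternative fits, and with library totals only miR-222-3p was at 0.16 with an adjusted p of 0.64 and miR-92a-3p at 0.55 with an adjusted p of 0.061 in the edgeR test.

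Among 8 tested miRNAs of smooth muscle, pericytes, or perivascular fibroblasts, 3 rose and 3 fell. Those that rose were miR-152-3p (log2 fold change 1.50), miR-152-5p (1.32, at 2.42 CPM in the MCAO + rTMS group), and miR-199a-3p (1.03), which is abundant in fibroblasts. Those that fell were miR-497-5p (-1.96), miR-195-5p (-1.60), and miR-143-5p (-0.74). The other arm miR-195-3p, not on the list, was called higher (1.28). The call of miR-152-5p was kept in 3 of 15 alternative fits, that of miR-199a-3p in 7 of 16, and that of miR-143-5p in 10 of 15. With library totals only miR-199a-3p was at 0.43 on the log2 scale, with an adjusted p of 0.39 in the edgeR test.

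Of 6 tested miRNAs of red cells or platelets, 4 fell, namely miR-106b-5p (log2 fold change -2.69), miR-16-5p (-1.55), miR-363-3p (-1.21), and miR-15b-5p (-1.03). The level of miR-106b-5p was low, at 8.63 CPM in the MCAO and 1.32 CPM in the MCAO + rTMS group. Its more abundant other arm miR-106b-3p, not on the list, rose from 77.4 to 187 CPM (log2 fold change 1.27). The other arms miR-15b-3p (-0.86), miR-25-5p (-0.51), and miR-191a-3p (-0.15) were not called. miR-25-3p rose by 0.95, but was at 0.31 with an adjusted p of 0.18 in the edgeR test with library totals only. The call of miR-15b-5p was kept in 9 of 15 alternative fits, and miR-191a-5p was at -0.25 and did not pass the test. miR-144-5p was not analysed here. Several of these miRNAs are also made by brain cells.

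Of 8 white cell miRNAs on the list, 6 fell and none rose. Other arms of the same hairpins, not on the list, did not fall. In the edgeR test miR-150-3p was called higher (log2 fold change 1.96, from 4.64 to 18.1 CPM), as was miR-342-5p (1.35, from 19.2 to 49.0 CPM). miR-223-5p (0.07) and miR-146b-3p (-0.01) were not called. The 4 taken as white cell markers all fell, although bulk libraries do not show which cells made these miRNAs. Their log2 fold changes were -1.76 for miR-223-3p of neutrophils and monocytes, -1.38 for miR-142-5p, -1.35 for miR-142-3p, and -0.81 for miR-150-5p of lymphocytes. All but miR-150-5p were at low levels. miR-223-3p went from 11.7 to 3.42 CPM, miR-142-5p from 8.40 to 3.22 CPM, and miR-142-3p from 4.49 to 1.77 CPM. The summed level of the 4 markers was 459 to 580 CPM in the MCAO libraries and 274 to 299 CPM in the MCAO + rTMS libraries, and miR-150-5p made up most of it. On the red and white cell lists, the miRNAs that passed the test moved in the direction of miR-451-5p, except miR-25-3p. The red cell member miR-486 rose, as did the other arms miR-150-3p, miR-342-5p, and miR-106b-3p. The call of miR-451-5p itself was lost in 8 of the 16 alternative fits. The part of white cells or residual blood in the changes of the members was not tested. The calls of miR-142-3p and miR-142-5p were kept in 8 and 7 of 15 alternative fits. Of the 24 called miRNAs of the wider list, 11 kept their call in every alternative fit that tested them, 5 lost it in 1 or 2, and 8 in more. None of the 24 changed direction in the 4 other scalings tried.

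Markers of other cells of the cortex were present in every library. Of 4 neuronal markers, 1 was higher (miR-128-3p) and 1 lower (miR-138-5p, log2 fold change -1.65). miR-124-3p (-0.49) and miR-9a-5p (-0.16) were not called. The summed level of the 4 was 323535 to 420388 CPM in the unstimulated and 423227 to 610344 CPM in the stimulated libraries. Only miR-128-3p rose within this sum, from a mean of 212040 to 341038 CPM. Of 2 oligodendrocyte markers 1 was higher (miR-219a-2-3p), with summed levels of 571 to 786 CPM and 963 to 2106 CPM. miR-219a-2-3p made up most of this sum. The other marker, miR-338-3p, went from 21.3 to 12.9 CPM (log2 fold change -0.73) and was not called. Neither of 2 choroid plexus markers passed the edgeR test at an adjusted p of 0.05, with summed levels of 418 to 551 CPM and 593 to 1135 CPM. The part of these cell types in the changes of the vascular miRNAs was not tested.

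**Figure D5:**
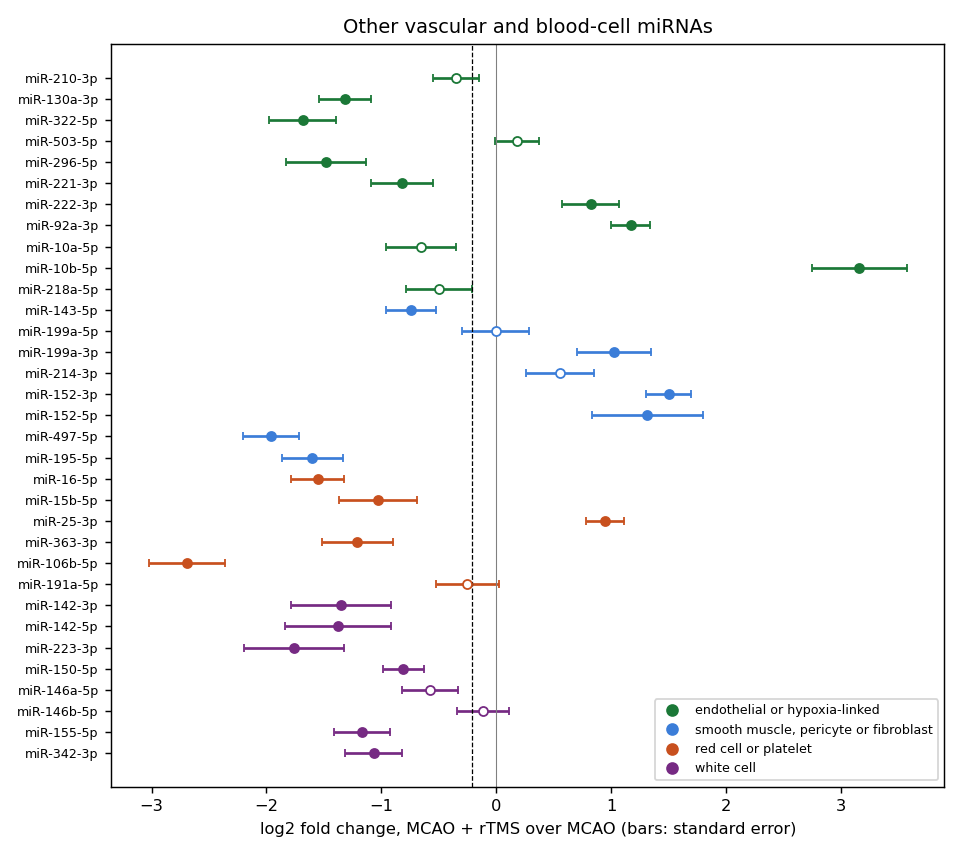
Log2 fold change between MCAO + rTMS and MCAO of the 33 tested miRNAs of the wider list, with bars for the standard error, filled points for an adjusted p under 0.05, colours for the cell class, and a dashed line at the median of all tested miRNAs. The white cell miRNAs all lie left of 0, while the endothelial and smooth muscle classes lie on both sides.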

How the data were processed

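Small RNA libraries of 3 MCAO and 3 MCAO + rTMS rats were grouped by sample title. The authors deposited raw read counts per mature miRNA, for 493 miRNAs and again for a selection of 73 with equal values that holds 3 of the members (miR-486, miR-143-3p, and miR-126a-5p). The submitters' processing notes name bcl2fastq, BWA, DESeq2, and rn6, without roles. The counting rule is not given in the sources used here. Of 2958 counts 286 were 0 and none lay from 1 to 9, and the smallest count of a member was 112. Low values of other miRNAs are therefore less certain.

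The counts were tested with edgeR 4.0.16 under R 4.3.3: filterByExpr (452 kept), TMM factors, and the quasi-likelihood test between the groups with Benjamini-Hochberg adjustment. The standard error was the log2 fold change divided by the square root of F. The script was tested on simulated data. Ratios were taken from raw counts and tested with exact permutation tests in scipy 1.17.1 (Python 3.11.15). The ratio of miR-144-3p to miR-451-5p was planned and could not be made. Figures were drawn with matplotlib 3.10.9.

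The members, lists, and tests were chosen with earlier results of these data known. Named miRNAs are the members, their partner arms, called miRNAs of the wider list, and for each member the 2 closest profiles with a mean count above 200. miR-210-3p, miR-191a-5p, the cell markers named, and the other arms of wider-list hairpins were singled out after their values were seen. Alternatives were other scalings, DESeq2 1.42.0, limma-voom from limma 3.58.1, a two-sample test with equal variances on log2(CPM + 1), other filters, a replicate block, each library left out, and for ratios a pseudocount of 10. The labels name separate samples without stating how the rats were housed or handled, so p-values measure the spread between these libraries.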

Additional observations from a re-analysis of the deposited data

How the results depend on the processing

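miR-126a-5p and miR-486 were called in the same direction in all 16 alternative fits. The log2 fold change of miR-126a-3p passed the adjusted p of 0.05 at -1.12 with upper-quartile factors, -1.46 with library totals only, -0.77 with DESeq2, and -0.96 among miRNAs with a mean count above 200. Relative to the median of all tested miRNAs, the change of miR-126a-3p was -0.64 with TMM factors, -0.62 with upper-quartile factors, and -0.66 with library totals only. The log2 fold change of miR-143-3p lost the call at 0.78 with upper-quartile factors, 0.47 with library totals only, and 1.10 in the equal-variance two-sample test. That of miR-451-5p lost it at -1.28 with limma-voom, -1.22 in the equal-variance two-sample test, and -1.29 with the replicate block. Direction reversed for miR-145-5p (0.0062 with TMM factors found without the 10 most abundant miRNAs) and for miR-145-3p (-0.12 with upper-quartile factors and -0.46 with library totals only).

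With 1 library left out in turn, the log2 fold change ranged from -1.08 to -0.62 for miR-126a-3p, from 0.85 to 1.31 for miR-143-3p, from -0.22 to 0.12 for miR-145-5p, and from -1.95 to -0.72 for miR-451-5p. The number of members called ranged from 1 to 2 higher and from 1 to 3 lower, and in the wider list from 4 to 6 higher and from 11 to 16 lower. Of all tested miRNAs, 18.8% to 26.1% were called higher and 18% to 28% lower. These fits have fewer libraries.

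The number of members called higher was 1 with upper-quartile factors, library totals only, and the two-sample test. The shares of all tested miRNAs called higher in these fits were 18.8%, 12.2%, and 21.5%, against 27.2% in the main fit. The number of members called lower was 1 with limma-voom, the two-sample test, and the replicate block. The shares of all tested miRNAs called lower in these fits were 29%, 21.9%, and 18.1%, against 28.1% in the main fit. In the wider list the number called higher was 4 with upper-quartile factors, 2 with library totals only, and 4 with the two-sample test. The number called lower was 9 among miRNAs with a mean count above 200, where fewer were tested. Of all miRNAs tested with that filter, 36% were called lower. The median SD of the members in the MCAO + rTMS group, 0.18 with TMM factors, was 0.27 with library totals only. No ratio moved by more than its pooled SD with a pseudocount of 10 or with 1 library left out. Apart from the smaller number of libraries or miRNAs and the shift of the median with the scaling, the cause was not tested.

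Same-numbered libraries of the groups did not deviate together, with correlations across miRNAs of 0.20, -0.12, and -0.11 for replicates 1, 2, and 3, so the numbers were not taken as pairs. The replicate block lowered the number of all miRNAs called from 250 to 180. Depth limits miR-451-5p most, with 112 to 735 counts per library.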
